A study of Canis lupus familiaris with 7 samples.

Results

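Genes of the hypoxia response and of glycolysis were compared between canine osteosarcoma (OSA) tumor and non-tumor bone. A list of 42 gene symbols was looked up in the gene column of the expression table, and 36 of them were found, on 38 of its 24580 rows. The list was built in 4 roles: the oxygen-sensing regulators, glucose uptake with the glycolytic enzymes, pyruvate and lactate handling, and hypoxia targets outside glycolysis. RNA had been sequenced from 4 pieces of grossly non-malignant bone (N1, N3, N8 and N9) and 3 OSA tumors (T1, T3 and T10) taken from dogs at amputation or after euthanasia, with the non-tumor bone cut next to a tumor. The labels give no breed, age, sex or treatment of the sequenced dogs, and do not say whether each sample of a group is a different dog. Nor do they say whether a shared number (N1 and T1, N3 and T3) marks the same dog. The p-values below therefore measure the spread between these samples, and they treat all samples as independent.

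In cells with enough oxygen, the prolyl hydroxylases encoded by the *EGLN* genes mark the alpha subunits *HIF1A* and *EPAS1*, and the *VHL* protein then has them degraded. When oxygen falls the alpha subunits persist, pair with *ARNT* and switch on genes for glucose uptake, glycolysis, lactate export, acid handling, vessel growth and mitochondrial clearance. Much of this control acts on the protein, so the mRNA of the regulators need not move with the mRNA of their targets. Skeletal muscle and neutrophils rely on glycolysis as well.

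The symbols *ALDOA*, *PKM*, *LDHA*, *PDK1*, *SLC16A1* and *BNIP3L* had no row under that name and are not analysed here. Of the 38 rows found, 5 lie in intervals of at most 1500 bases of the CanFam3.1 assembly. These short rows are *ENO1* (ENSCAFG00000003774, chromosome 19 from 7908922 to 7909782), *PGAM1* (ENSCAFG00000010025, chromosome 18 from 45940705 to 45941418), *PGK1* (ENSCAFG00000031357, chromosome 20 from 17565474 to 17566183), and second rows of *GAPDH* (chromosome 4 from 13332575 to 13333573) and *LDHB* (chromosome 13 from 28303658 to 28304956). *ENO1* and *PGK1* were listed at 0 FPKM (fragments mapped, scaled to transcript length and library size) in all 7 samples, and *PGAM1* was above 0 only in N9, at 0.487 FPKM. The second *GAPDH* row reached at most 0.920 FPKM (N9). These 4 rows had a mean below 1 FPKM and were not tested, so the enzymes that *ENO1*, *PGAM1* and *PGK1* encode cannot be judged from this table. The second *LDHB* row was at 1.08 to 2.44 times the FPKM of the row on chromosome 27 (from 25473222 to 25492908). Whether these rows share reads was not tested, so both are given as uncertain. The intervals of 8 further rows hold another listed gene too: *ARNT*, *EGLN1*, *SLC2A1*, *SLC2A3*, *HK1*, *PFKL*, *ANKRD37* and *NDUFA4L2*.

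The remaining 34 rows, of 33 symbols, had a mean of at least 1 FPKM and were tested among 13507 genes. Values were taken as log2(FPKM + 1), a scale that understates the change of genes with low values, and compared with limma. Calls used the study's own limits, a change of 2-fold or more and p below 0.05 before adjustment. Log2 fold changes are printed ± their standard error, and limma p-values without adjustment unless stated. By limma 6 of the 34 rows were called, where 6.86% of all genes were. Of these, 5 (14.7%) were called higher in OSA tumor, where 3.28% of all genes tested were, and 1 (2.94%) was called lower, where 3.58% were. The higher genes were *SLC2A1*, *ENO2*, *VEGFA*, *CA12* and *NDUFA4L2*, and the lower gene was *PFKFB4*. *CA12* passed the filter on low values only through the tumors and *PFKFB4* only through the non-tumor samples, so these counts describe the rows tested and not the whole list. The list was also chosen with earlier results of these data known, so its shares are not independent of them. The groups did not overlap in 5 of the 34 rows, where 5.85% of all genes showed this. In *SLC2A1*, *CA12*, *VEGFA* and *NDUFA4L2* every tumor was higher (3.04% of all genes) and in *PFKFB4* every tumor was lower (2.81% of all genes). After Benjamini-Hochberg adjustment over all genes the smallest limma p among the members was 0.693, and 0 genes of the table reached 0.05 (927 had an unadjusted p under 0.05). Median log2 fold changes were 0.22 for the 34 rows and -0.02 for all genes tested. The exact permutation tests of single values are two-sided, and with 4 against 3 samples their p cannot go below 0.0571.

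Muscle and marrow RNA differed widely among the non-tumor samples. Summed over the 13 of 15 skeletal muscle markers found, FPKM was 93159 in N8 and 63046 in N9, 1105 in N3 and 76.7 in N1, against 15.1 to 31.3 in the tumors. For 11 of the 13 markers both N8 and N9 were above every other sample. The 9 granulocyte markers summed to 58937 FPKM in N3 and 65460 in N8, and to between 67.9 and 2022 in the other samples. The 9 osteoblast markers, which should mark bone, summed to only 162 FPKM in N8 and 504 in N9, against 7471 in N1, 1723 in N3 and 1962 to 12761 in the tumors. In bulk RNA such differences cannot separate fewer cells of a type from less RNA per cell. For this reason values without N8 and N9 are given beside the main results, a choice made after seeing the data. Without them 1.36% of all genes were called, and 6 members were called higher, where 0.6% of all genes were, and 0 lower, where 0.763% were (by limma 0 of the members not called higher had an unadjusted p under 0.05 with a negative fold change).

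**Figure D1:**
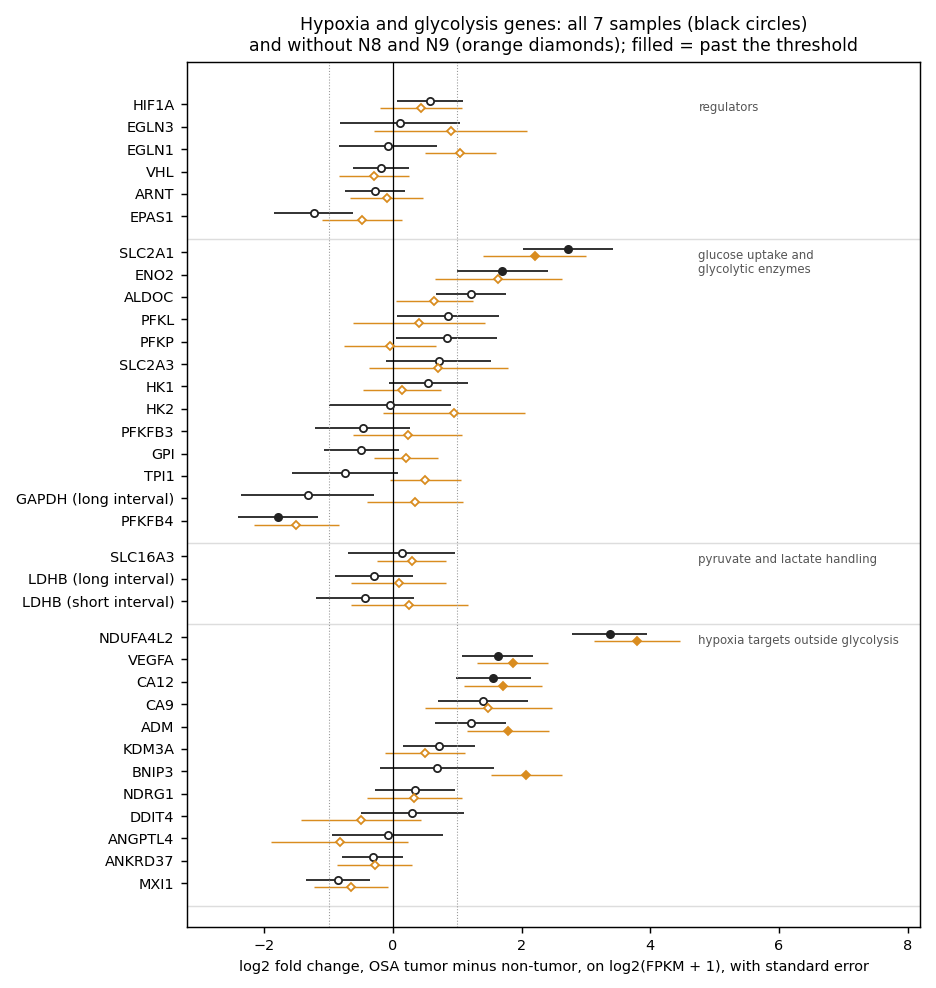
Log2 fold change (OSA tumor minus non-tumor, log2(FPKM + 1) scale, bars are the standard error from limma) of the 34 rows tested, by role. Black circles use all 7 samples and orange diamonds leave out N8 and N9, filled where the call was made; *BNIP3* moved from 0.69 to 2.07 and *GAPDH* from -1.32 to 0.34.

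None of the 6 regulators was called. *HIF1A*, the alpha subunit found in most cell types, was at 20.5, 42.3, 26.8 and 22.0 FPKM (N1, N3, N8, N9) and 44.3, 22.6 and 64.9 (T1, T3, T10). T1 and T10 were above every non-tumor sample while T3 lay among them (log2 fold change 0.57 ± 0.51, limma p = 0.292, exact permutation p = 0.229). The fold change was 0.24 without T10 and 0.98 without T3, neither called. *EPAS1*, the alpha subunit prominent in endothelium, was at 8.92, 20.0, 29.7 and 52.6 FPKM (N1, N3, N8, N9) and 13.3, 9.07 and 6.62 (T1, T3, T10). N3, N8 and N9 stood above all tumors and N1 within the tumor range (log2 fold change -1.23 ± 0.61, limma p = 0.0740, exact permutation p = 0.171). *EPAS1* was called lower without N1 (-1.66) and with sample weights (-1.42), and without N8 and N9 its log2 fold change was -0.49. The summed FPKM of the 9 endothelial markers found, of 10 listed, ran from 82.9 (N1) to 376 (N9) among the non-tumor bones, with 109, 32.6 and 27.1 (T1, T3, T10), with 0 of the markers at 0 in all tumors; the part of endothelium in the *EPAS1* values was not tested.

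Within a sample the ratio of the alpha subunits does not depend on scaling between samples, apart from the pseudocount. *EPAS1* was at 0.436, 0.473, 1.11 and 2.40 times *HIF1A* (N1, N3, N8, N9) and 0.2995, 0.401 and 0.102 (T1, T3, T10). Every tumor lay below every non-tumor sample, narrowly for T3 against N1. The log2 ratio averaged -0.20 ± 1.11 for non-tumor (SD, n = 4) against -2.004 ± 0.986 for OSA tumor (SD, n = 3) (two-sided exact permutation test, p = 0.0571, adjusted p = 0.229 over the 4 ratios that could be computed). The difference of -1.81 was -0.93 without N8 and N9, whose ratios were the highest, -1.33 without N9 alone and -1.25 without T10.

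For the other regulators the differences were smaller than their standard errors. *VHL* varied least of the 34 rows on the log2 scale, from 7.71 FPKM (T10) to 15.9 (N3), with a log2 fold change of -0.18 ± 0.43. *ARNT*, the shared partner of both alpha subunits, had -0.28 ± 0.46. The hydroxylase genes, which are themselves hypoxia targets, varied most of the regulators. *EGLN1* was at 161 FPKM in N9 and 63.3 in N8, and between 16.4 and 58.9 in the other samples. Its log2 fold change was -0.07 with all samples and 1.04 without N8 and N9, neither of them called. *EGLN3* was at 1.06, 20.3, 12.8 and 27.3 FPKM (N1, N3, N8, N9) and 4.77, 28.2 and 10.3 (T1, T3, T10). N1 and T1 were its lowest samples, so the low values were split between the groups.

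Of the 13 rows tested for glucose uptake and glycolysis, 2 were called higher (3.28% of all genes were), 1 lower (3.58%) and 10 not. The lower row, *PFKFB4*, had passed the filter only through the non-tumor samples. The median log2 fold change of this role was 0.55, with 7 values above 0 and 6 below, and without N8 and N9 it was 0.40, with 11 above and 2 below. With no filter on low values, which lets in the short *PGAM1* row and the second *GAPDH* row, both near 0 FPKM, it was -0.046. It depended on single samples, with 0.16 without N1, 0.22 without N9, 0.30 without T1, 0.33 without T3 and 0.31 without T10. *SLC2A1*, the basal glucose transporter (ENSCAFG00000002500, chromosome 15 from 463917 to 494693), was at 25.8, 9.82, 4.27 and 12.1 FPKM (N1, N3, N8, N9) and 61.8, 185 and 40.4 (T1, T3, T10). All tumors exceeded all non-tumor samples, and T3 alone held 64.4% of the tumor sum. N1, highest of the non-tumor samples here, was also their highest in osteoblast markers, whereas T3 was the lowest tumor in these, and the part of osteoblasts was not tested. Its log2 fold change was 2.72 ± 0.70 (limma p = 0.00331, exact permutation p = 0.0571), and 2.20 without N8 and N9. *SLC2A3*, the high-affinity transporter of neurons and leukocytes, did not separate the groups. It was at 7.29, 80.6, 42.2 and 14.4 FPKM (N1, N3, N8, N9) and 19.5, 70.9 and 50.5 (T1, T3, T10). *SLC2A1* was at 3.55, 0.122, 0.101 and 0.840 times *SLC2A3* (N1, N3, N8, N9) and 3.16, 2.61 and 0.800 (T1, T3, T10). The lowest ratios were those of N3 and N8, the samples with the most granulocyte marker RNA, and the groups overlapped (two-sided exact permutation test, p = 0.400, adjusted p = 0.800). The log2 ratio differed by 2.01 between the groups, and by 1.499 without N8 and N9. The part of granulocytes in this ratio was not tested.

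*ENO2*, the neuronal enolase (ENSCAFG00000014523, chromosome 27 from 38116698 to 38127850), was at 0.873, 2.34, 1.41 and 1.19 FPKM (N1, N3, N8, N9) and 1.68, 22.1 and 6.65 (T1, T3, T10). T3 and T10 were above all non-tumor samples, whereas T1 was below N3. T3 held 72.7% of the tumor sum. The log2 fold change was 1.70 ± 0.71 (limma p = 0.0397, exact permutation p = 0.114). This call was fragile: it was lost without N1 (1.58), N8 (1.70), N9 (1.66), T3 (0.92) or T10 (1.71), and without N8 and N9 together (1.64). *ALDOC*, the brain aldolase, was at 11.4, 6.53, 3.72 and 3.05 FPKM (N1, N3, N8, N9) and 20.8, 14.4 and 9.34 (T1, T3, T10). Only T10 fell inside the non-tumor range, below N1, and the gene missed the threshold by a small margin (log2 fold change 1.22 ± 0.54, limma p = 0.0508, exact permutation p = 0.114). Without N1 it was called, at 1.53, and without T10 as well, at 1.49, while without N8 and N9 it stood at 0.65. It was also called with median ratio scaling (1.24), quantile normalization (1.31) and sample weights (1.26). N1 and T1 were the highest samples of their groups in *ALDOC* as in the summed osteoblast markers, and N8 and N9 the lowest in both, and the part of osteoblasts was not tested.

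*PFKFB4* (ENSCAFG00000012493, chromosome 20 from 40555857 to 40585043) is a hypoxia target in many cell types. It encodes a bifunctional enzyme that makes and degrades a regulatory fructose bisphosphate, which activates phosphofructokinase and is not its product. *PFKFB4* was at 1.59, 6.75, 9.43 and 3.28 FPKM (N1, N3, N8, N9) and 1.39, 0.0584 and 0.569 (T1, T3, T10). Every tumor was below every non-tumor sample, although N1 and T1 were close together. The log2 fold change was -1.79 ± 0.62 (limma p = 0.0171, exact permutation p = 0.0571). It was not called without T3 (-1.50) or without N8 and N9 (-1.50). N3 and N8, its highest samples, were also the highest in granulocyte markers, and the part of granulocytes was not tested. Its relative *PFKFB3*, the inducible form, was at 11.1, 32.0, 35.4 and 75.8 FPKM (N1, N3, N8, N9) and 28.9, 44.7 and 8.49 (T1, T3, T10), a log2 fold change of -0.47 ± 0.74 with all samples and 0.23 without N8 and N9. Here T10 was the lowest sample and T3 the second highest, so these sister genes ordered the tumors differently.

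**Figure D2:**
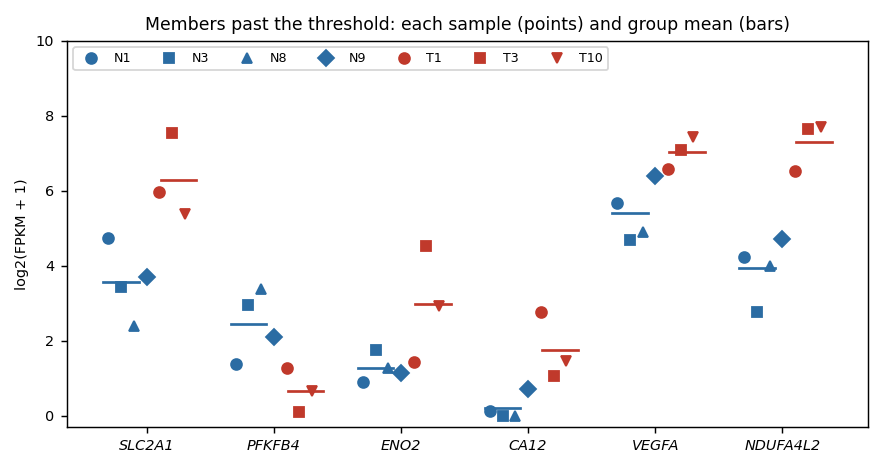
Log2(FPKM + 1) of the 6 members called, one symbol per sample, with group means as bars (blue, non-tumor, n = 4; red, OSA tumor, n = 3). The groups do not overlap in *SLC2A1*, *PFKFB4*, *CA12*, *VEGFA* and *NDUFA4L2*; in *ENO2* T1 lies among the non-tumor samples.

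Several abundant enzymes had their highest values in N8 and N9, the samples with the most muscle marker RNA. *GAPDH* (the row on chromosome 27 from 38468919 to 38472375) was at 1229 FPKM in N8 and 1049 in N9, and at 105 in N1, 121 in N3, 138 in T1, 320 in T3 and 65.2 in T10. *TPI1*, triosephosphate isomerase, was at 1267 FPKM in N8 and 1385 in N9, and from 216 to 456 elsewhere. *GPI*, which converts glucose phosphate to fructose phosphate, was at 267 FPKM in N8 and 211 in N9, and from 69.0 to 120 elsewhere. N8 and N9 were thus the top samples for all of these, and within the other 5 samples T3 was highest in each. The log2 fold changes were -1.32 (*GAPDH*), -0.75 (*TPI1*) and -0.49 (*GPI*), and without N8 and N9 they were 0.34, 0.50 and 0.20. None was called in either fit, and the part of skeletal muscle was not tested. *EPAS1*, *EGLN1*, *GPI*, *TPI1* and *GAPDH* were the 5 of 34 rows in which N8 and N9 both exceeded every other sample, a pattern that 13.6% of all genes tested showed.

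**Figure D3:**
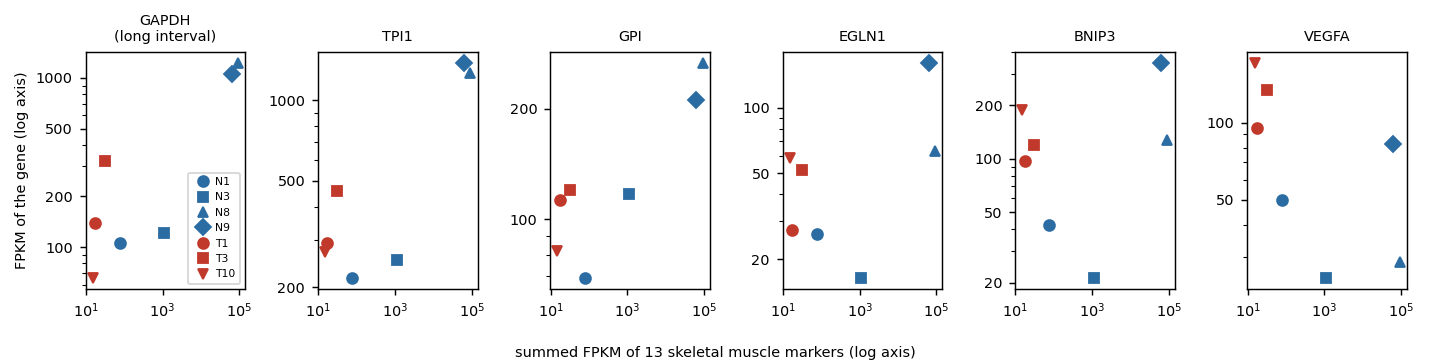
FPKM of 6 members (vertical, log axis) against the summed FPKM of 13 skeletal muscle markers (horizontal, log axis) in each of the 7 samples; blue, non-tumor, and red, OSA tumor. N8 and N9 are at the top right for *GAPDH*, *TPI1* and *GPI*, and for *EGLN1* with N8 close to the tumors, N9 alone is top for *BNIP3*, and *VEGFA* is highest in the 3 tumors.

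The hexokinases, which trap glucose in the cell, split along other lines. *HK2*, the inducible form, was at 3.06, 18.6, 22.1 and 52.7 FPKM (N1, N3, N8, N9) and 5.31, 50.2 and 14.7 (T1, T3, T10). Both groups spanned a wide and nearly identical range, and the log2 fold change was -0.05 ± 0.94 with all samples and 0.94 without N8 and N9, neither called. *HK1*, the widely expressed form, ranged from 7.78 (N9) to 42.6 FPKM (T10). *HK2* exceeded *HK1* only in N9 (6.77 times) and T3 (2.61 times). The log2 ratio of *HK2* to *HK1* averaged -0.27 ± 2.06 for non-tumor (SD, n = 4) against -0.86 ± 1.97 for OSA tumor (SD, n = 3) (two-sided exact permutation test, p = 0.686, adjusted p = 0.914). Their difference was -0.59 with all samples and 0.80 without N8 and N9.

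Phosphofructokinase, the committed step of glycolysis, is built from subunits of which *PFKL* (liver) and *PFKP* (platelet) are members here. *PFKL* was at 26.9, 8.58, 11.8 and 4.96 FPKM (N1, N3, N8, N9) and 45.5, 34.6 and 5.08 (T1, T3, T10). *PFKP* was at 42.7, 24.5, 18.2 and 4.02 FPKM (N1, N3, N8, N9) and 68.5, 27.4 and 16.1 (T1, T3, T10). In both, T1 was the highest sample and N9 the lowest. T10 stood inside the non-tumor range in both genes. The log2 fold changes were 0.85 ± 0.80 for *PFKL* and 0.84 ± 0.78 for *PFKP*, and their log2 ratio differed between the groups by -0.02 (two-sided exact permutation test, p = 0.914, adjusted p = 0.914) and by -0.45 without N8 and N9. Without T10 *PFKL* was called higher, at 1.77, but it was at 0.30 without T1, 0.49 without T3, 0.52 without N9 and 0.40 without N8 and N9. *PFKP* was at 0.22 without N9, 0.28 without T1 and -0.05 without N8 and N9. N1 and T1, their highest samples in each group, were also the highest in osteoblast markers, and the part of osteoblasts was not tested.

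Pyruvate and lactate handling could be followed in only 2 of 5 symbols. *LDHB*, the lactate dehydrogenase chain of heart muscle, was on its chromosome 27 row at 7.69, 17.5, 13.6 and 30.7 FPKM (N1, N3, N8, N9) and 5.43, 19.5 and 17.6 (T1, T3, T10). The short row was at 9.82, 25.9, 33.2 and 56.1 FPKM (N1, N3, N8, N9) and 5.86, 32.0 and 36.0 (T1, T3, T10). N1 and T1 were the lowest samples on both rows, and the log2 fold changes were -0.29 and -0.44. *SLC16A3*, the lactate exporter of glycolytic cells, was at 15.3, 20.8, 90.9 and 4.94 FPKM (N1, N3, N8, N9) and 34.0, 17.2 and 18.1 (T1, T3, T10). The tumors lay between the extremes of the non-tumor group, with a log2 fold change of 0.14 ± 0.83.

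Of the 12 hypoxia targets outside glycolysis, 3 were called higher (3.28% of all genes were), 0 lower (3.58%) and 9 not. *CA12*, among the 3, had passed the filter only through the tumors. Their median log2 fold change was 0.71, with 9 values above 0 and 3 below, and without N8 and N9 it was 0.99, with 8 above and 4 below. With a single sample left out it ran from 0.68 (without N1) to 1.14 (without N9). By limma 0 of the 3 values that were negative with all samples had an unadjusted p under 0.05. *NDUFA4L2*, a mitochondrial protein that restrains respiration under hypoxia (ENSCAFG00000000200, chromosome 10 from 1357229 to 1463472, an interval that holds 4 listed genes), was at 17.6, 5.83, 14.99 and 25.2 FPKM (N1, N3, N8, N9) and 90.6, 201 and 208 (T1, T3, T10). The lowest tumor was well above the highest non-tumor sample. Its log2 fold change of 3.37 ± 0.59 (limma p = 0.000235, exact permutation p = 0.0571) was the largest of the 34 rows. The call stood in all 7 fits that each left out a sample, from 2.99 to 3.76, as did that of *SLC2A1*, from 2.10 to 3.18.

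*VEGFA*, the main growth factor for blood vessels (ENSCAFG00000001938, chromosome 12 from 12207947 to 12225072), was at 49.7, 24.7, 28.6 and 82.5 FPKM (N1, N3, N8, N9) and 95.4, 134 and 171 (T1, T3, T10). The means were 46.4 ± 26.5 FPKM (SD, n = 4) and 134 ± 38.0 FPKM (SD, n = 3), and the groups did not overlap, although N9 came near T1. The log2 fold change was 1.63 ± 0.55 (limma p = 0.0154, exact permutation p = 0.0571). Without T10 it was not called, at 1.43, and without N8 and N9 it was called, at 1.86. *ADM*, adrenomedullin, a vasodilator peptide, was at 2.18, 4.27, 7.36 and 9.05 FPKM (N1, N3, N8, N9) and 14.9, 18.5 and 8.18 (T1, T3, T10). T10 fell just below N9, and *ADM* missed the threshold by a small margin (log2 fold change 1.21 ± 0.55, limma p = 0.0550, exact permutation p = 0.114). It was called with quantile normalization (1.34), without N9 (1.45), without T10 (1.52), and without N8 and N9 together (1.79). *ANGPTL4*, a secreted inhibitor of lipoprotein lipase, went another way: it was at 91.8 FPKM in N1 and 116 in T1, and between 11.4 (T3) and 30.5 (N3) in the other 5 samples.

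Carbonic anhydrases at the cell surface help glycolytic cells to export acid. *CA12* (ENSCAFG00000016990, chromosome 30 from 27905922 to 27957723) was listed at 0 FPKM in N3 and N8, at 0.0775 in N1 and at 0.619 in N9, and the tumors were at 5.80, 1.08 and 1.74 (T1, T3, T10). All tumors were above all non-tumor samples, but at low FPKM throughout (log2 fold change 1.56 ± 0.58, limma p = 0.0239, exact permutation p = 0.0571). Without T1 it was not called, at 1.06. *CA9*, often used as a tissue marker of hypoxia, was at 1.54, 2.58, 2.37 and 2.46 FPKM (N1, N3, N8, N9) and 10.03, 20.3 and 1.56 (T1, T3, T10). T1 and T3 stood far above a tight non-tumor group while T10 was within it. The log2 fold change was 1.39 ± 0.70 (limma p = 0.0763, exact permutation p = 0.229) with T10 and 2.25 without it, the latter called. Without T3 it was 0.73, not called.

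*BNIP3*, a receptor for the clearance of mitochondria, was at 42.5, 21.1, 128 and 348 FPKM (N1, N3, N8, N9) and 97.0, 120 and 187 (T1, T3, T10). N9 was above every tumor and N8 above T1 and T3, and the log2 fold change was 0.69 ± 0.88. With a single sample left out it ran from 0.064 (without N3) to 1.39 (without N9), and no such fit called it. Without N8 and N9 every tumor was above both remaining non-tumor samples and the gene was called higher, at 2.07 ± 0.56 (unadjusted p = 0.00938 by limma). The part of skeletal muscle in the values of *BNIP3* was not tested. *NDRG1*, a stress-response gene, ranged from 31.3 (N1) to 119 FPKM (T3), with T10 at 33.0 among the lowest. *DDIT4*, an inhibitor of growth signalling, ranged from 23.6 (T10) to 193 FPKM (T1). *KDM3A*, a histone demethylase, was at 44.2 FPKM in T10 and between 6.49 and 18.9 in the other samples. *MXI1*, which opposes MYC, was at 18.1, 37.3, 26.9 and 45.8 FPKM (N1, N3, N8, N9) and 16.5, 11.5 and 22.7 (T1, T3, T10). T10 alone reached into the non-tumor range, and the log2 fold change of -0.85 ± 0.49 (limma p = 0.114, exact permutation p = 0.114) was the lowest of this role. *ANKRD37*, an ankyrin-repeat gene, had -0.32 ± 0.47.

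**Figure D4:**
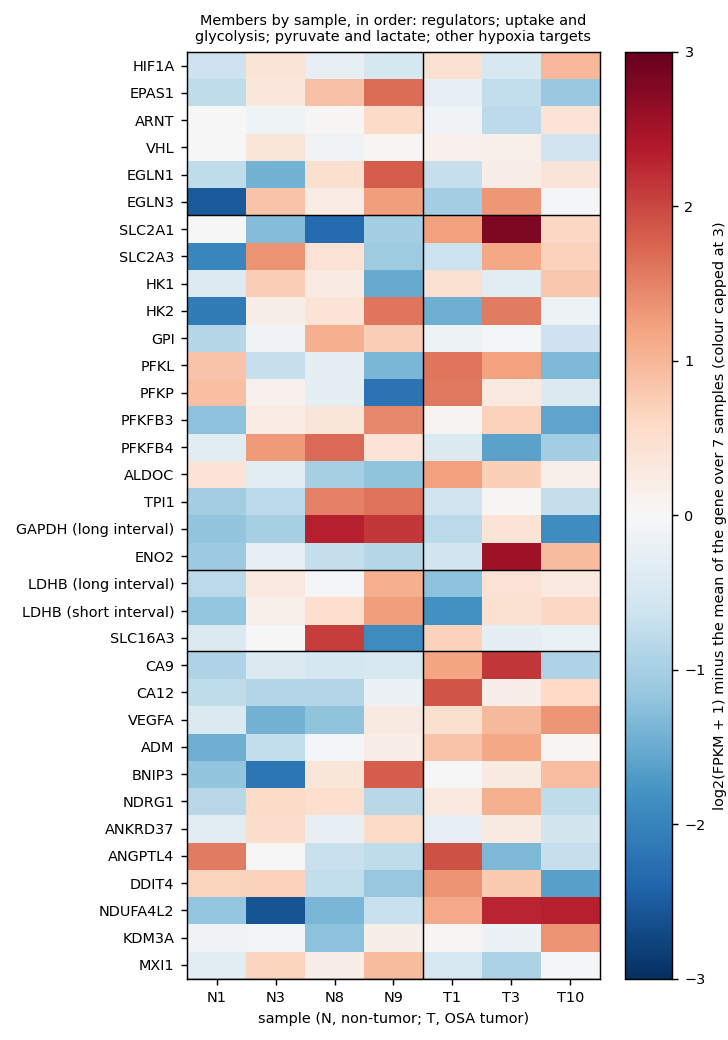
Log2(FPKM + 1) of the 34 rows tested in each sample, less the mean of the gene over the 7 samples (red, above; blue, below; colour capped at 3). Rows are grouped by role and a vertical line parts non-tumor from OSA tumor; T3 is darkest red in *SLC2A1* and *ENO2*, and N8 and N9 in *GAPDH*.

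The order of the 3 tumors differed between the roles. T3 was the highest tumor in 8 of the 13 glucose uptake and glycolysis rows and T10 in 1, while T10 was the lowest tumor in 8. Among all genes tested, T3 was the highest tumor in 32.2% and T10 the lowest in 31.1%. T3 was highest in both glucose transporters and in *HK2*, *ENO2*, *PFKFB3*, *GPI*, *TPI1* and *GAPDH*. The hypoxia targets outside glycolysis were divided more evenly, with T1 highest in 3 rows, T3 in 4 and T10 in 5. T10 had the highest *HIF1A*, *VEGFA*, *NDUFA4L2*, *BNIP3* and *KDM3A* of the tumors and the lowest *SLC2A1*, *CA9*, *ADM* and *DDIT4*. Over all 7 samples, N8 or N9 was the highest sample in 6 of 13 glycolysis rows, 3 of 12 other targets and 30.9% of all genes tested.

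The roles were compared by the mean log2(FPKM + 1) of their tested rows in each sample, as a description with no test. For glucose uptake and glycolysis the mean was 4.19, 4.76, 5.07 and 4.70 (N1, N3, N8, N9) and 4.92, 5.53 and 4.45 (T1, T3, T10). The groups overlapped, T10 lying below 3 of the 4 non-tumor samples, and the difference of 0.29 between their means was 0.083 without *SLC2A1*, which was also known to differ. Without *PFKFB4*, which passed the filter only through the non-tumor samples, the difference was 0.46. For the other hypoxia targets the mean was 4.050, 4.003, 4.006 and 4.487 (N1, N3, N8, N9) and 5.19, 5.05 and 4.66 (T1, T3, T10). Here the tumors were all above the non-tumor samples. Without *NDUFA4L2*, whose difference was known when the list was made, T10 (4.38) fell below N9 (4.47) and the groups overlapped. Over all genes tested the mean was 3.296 to 3.406 in the tumors and 3.36 to 3.52 in non-tumor samples. Within samples, the glycolysis mean less that of the other targets was 0.54 ± 0.44 (SD, n = 4) in non-tumor samples, from 0.14 to 1.07. In OSA tumor it was -0.00013 ± 0.42 (SD, n = 3), from -0.28 to 0.48. The groups overlapped, and their difference of -0.54 was close to the spread within each group. It was -0.98 at a pseudocount of 0.01 and ran from -0.78 (without T3) to -0.37 (without N8) with each sample left out. *PFKFB4* and *CA12*, which passed the filter on low values through a single group each, both add to it, and without them it was -0.30.

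**Figure D5:**
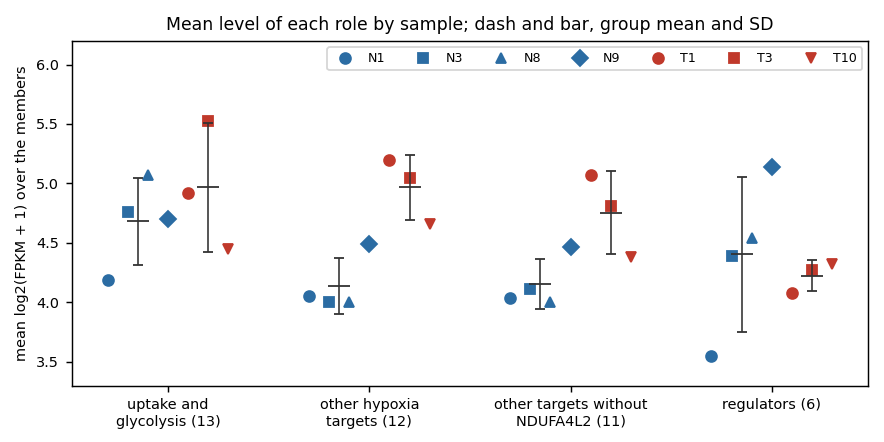
Mean log2(FPKM + 1) over the tested rows of each role in every sample (points; blue, non-tumor, n = 4; red, OSA tumor, n = 3), with group mean and SD. The groups overlap for uptake and glycolysis and for the regulators; they are apart for the other hypoxia targets with *NDUFA4L2* and overlap without it.

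A second list of 81 symbols of the same pathways, none of them members, gave 66 rows, of which 60 were tested. By limma 7 of the 60 (11.7%) were called higher, where 3.28% of all genes were, and 6 lower, where 3.58% were. Of the 60, 6 passed the filter on low values through a single group, among them the called genes *STC2* (tumors) and *LDHD* (non-tumor samples), so these counts describe the rows tested. This list too was chosen with earlier results of these data known, so its shares are not independent of them. All 7 higher ones were in the list of further hypoxia targets, of which 28 were tested. *P4HA1*, a prolyl hydroxylase of collagen, was at 87.2, 28.6, 23.4 and 57.7 FPKM (N1, N3, N8, N9) and 145, 197 and 521 (T1, T3, T10), and had a log2 fold change of 2.49. *P4HA2* had 2.34, the lysyl hydroxylase *PLOD2* 3.29 and the crosslinking enzyme *LOX* 2.29. The related lysyl hydroxylase *PLOD1* was not called (1.41 ± 0.80, unadjusted p = 0.112 by limma), and its groups overlapped. With a sample left out *PLOD1* ran from 0.72 to 2.21 and was called in 2 of 7 fits. *TMEM45A* had 2.51, *STC2* 1.83 and *ERO1L*, an oxidase of the endoplasmic reticulum, 1.33. The groups overlapped in *LOX*, with N1 above T3, and in *ERO1L*, with N3 above T1. With each sample left out, *ERO1L* lost the call in 5 of 7 fits and the other 6 genes in 0. Without N8 and N9, *P4HA1* (2.27), *PLOD2* (2.43) and *STC2* (1.65) were still called, and *FAM162A* (1.58) was called there alone. In that fit *P4HA2* (1.74), *LOX* (1.81), *TMEM45A* (2.08) and *ERO1L* (0.96) were not called. N1, with the most osteoblast marker RNA of the non-tumor samples, was also their highest in *P4HA1*, *P4HA2*, *PLOD2*, *LOX* and *TMEM45A*, and the part of osteoblasts was not tested.

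All 6 lower genes had their highest values in N3, N8 or N9. *PDK4*, which blocks entry of pyruvate into mitochondria, was at 10.1, 126, 950 and 1374 FPKM (N1, N3, N8, N9) and 1.87, 17.7 and 13.4 (T1, T3, T10) (log2 fold change -4.50). *PFKM*, the muscle phosphofructokinase subunit, was at 12.8, 17.7, 412 and 900 FPKM (N1, N3, N8, N9) and 8.48 to 11.2 in the tumors (-3.23). *GYS1* (-2.49), *LDHD* (-2.27) and *PFKFB2* (-1.82) were the other genes with N8 and N9 on top. *HK3*, the hexokinase of myeloid cells, was instead at 216 FPKM in N3 and 154 in N8, and between 1.32 and 8.47 in the other samples (-3.66). It alone was still called without N8 and N9, at -3.63. With each sample left out, *PFKM*, *LDHD* and *PFKFB2* lost the call in 5 of 7 fits, *GYS1* in 3, and *PDK4* and *HK3* in 2. *ENO3*, the muscle enolase, and *FBP2*, the muscle fructose bisphosphatase, had log2 fold changes of -4.13 and -4.36 and were not called, and *FBP2* had passed the filter only through the non-tumor samples. Without N8 and N9 they were at -0.21 (*ENO3*) and -0.40 (*FBP2*). Each was called in 2 of 7 fits with a sample left out. *ENO3* was at 3904 FPKM in N8 and 2348 in N9 and at most 19.7 elsewhere. *FBP2* was at 261 FPKM in N8 and 540 in N9 and at most 1.27 elsewhere. N8 and N9 both exceeded every other sample in 19 of these 60 rows, against 13.6% of all genes tested. These 19 include *FBP2*, *LDHD* and other rows that passed the filter only through the non-tumor samples, where N8 and N9 were highest. The part of skeletal muscle and of granulocytes in these values was not tested.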

How the data were processed

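RNA from 4 non-tumor and 3 OSA tumor samples of dog had been sequenced as paired, strand-specific libraries. The deposited table holds FPKM values per gene, which the authors made with TopHat and Cuffdiff on CanFam3.1 after trimming (tools as in the submitters' processing notes and the study's methods; versions are not given in the sources used here). The study's methods give only an approximate read number common to all samples, and FPKM keep no counts, so the mapped depth of each sample is not known. From the values that low genes share, fragments per FPKM were put at 0.546 (N8) to 1.44 (T10) times those of N1. The estimates rest on only 2.97% (T10) to 18.2% (T1) of the low genes compared. If they hold, low values of N8 and N9 (0.648) are the least precise. A gene entered the test when its FPKM averaged 1 or more across all 7 samples (13507 did, 11073 did not), and log2(FPKM + 1) was compared with limma 3.58.1 in R 4.3.3 with a mean-variance trend. The fit was also run on simulated independent values with equal spread in both groups. That setting is simpler than these data, so it does not show how the fit behaves here. Single values were compared by two-sided exact permutation. Of 8 ratios planned, 4 could be computed, and p-values were adjusted over these. The members, the second list and the marker lists were chosen with earlier results of these data known. Values in every sample were given for members called, those without overlap, the extremes of each role and a few set genes; other members follow the same form. Of the second list, those called and the 3 with the largest change were named, and *FAM162A* was added after its values were seen. *PLOD1* is also named, beside its relative *PLOD2*. Alternatives covered the pseudocount, filter, scaling, variance model, replicate block and samples left out.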

Additional observations from a re-analysis of the deposited data

Results flagged for a closer look

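Among 42 groups of 4 samples examined for a value far from the rest, 2 were past Dixon's 95% limit for the gap to the nearest sample, which chance passes in about 1 in 20 groups. *CA12* was at 0.619 FPKM in N9, against at most 0.0775 in the other non-tumor samples. The mean log2(FPKM + 1) of the hypoxia targets outside glycolysis was 4.49 in N9, against 4.003 to 4.050 in N1, N3 and N8.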

How the results depend on the processing

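*SLC2A1* and *NDUFA4L2* were called in all 19 alternatives, *CA12* and *VEGFA* in 18, *PFKFB4* in 16 and *ENO2* in 11. Rows called higher numbered 5, and 8 with the replicate number as a random replicate block (4 to 7 with a sample left out). Rows called lower numbered 1, with 2 under sample weights, 0 in the fixed replicate block and 0 without N8 and N9 (0 to 2 with a sample left out). The glycolysis median of 0.55 was -0.046 with no filter on low values and 0.88 in the fixed replicate block (0.16 to 0.75 with a sample left out). Without the filter it takes in the short *PGAM1* and *GAPDH* rows, both near 0 FPKM. The median of the other targets, 0.71, was 1.23 in the fixed replicate block and 0.99 without N8 and N9 (0.68 to 1.14 with a sample left out). Calls over all genes numbered 926, against 1857 with sample weights, 241 in the fixed replicate block, 184 without N8 and N9, and 319 (without N8) to 1997 (without N1) with a sample left out. Equal FPKM sums moved the median of all genes to 0.12 and the share of calls that were higher from 47.8% to 35.5%. In the fixed replicate block that share was 58.9%. With a sample left out it ran from 36.5% (without N3) to 70.3% (without T10). The glycolysis mean less that of the other targets differed by -0.54 between the groups, and by -0.34 in the fixed replicate block. The random replicate block also called *ALDOC* (1.10), *CA9* (1.69) and *ADM* (1.51), and the fixed one *CA9* (2.34), *ADM* (2.10) and *BNIP3* (1.81), while *ENO2* (1.65) and *PFKFB4* (-1.49) were not called in the fixed one. *ENO2* was not called with no filter on low values either (1.70). Apart from the rows added to the glycolysis median, the cause of these changes was not tested.

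Members that were not called changed sign as follows. With equal FPKM sums *EGLN1* was at 0.13, *HK2* at 0.18 and *ANGPTL4* at 0.089, and with quantile normalization at 0.061, 0.0086 and 0.0044. With sample weights *EGLN1* was at 0.039, *EGLN3* at -0.086, *SLC16A3* at -0.57 and *NDRG1* at -0.058. In the random replicate block *EGLN1* was at 0.25 and *HK2* at 0.32. In the fixed replicate block *EGLN1* was at 0.83, *HK1* at -0.095, *HK2* at 1.01, *GPI* at 0.37, *PFKFB3* at 0.88, *TPI1* at 0.64 and *GAPDH* at 0.89. Without N8 and N9 *EGLN1* was at 1.04, *HK2* at 0.94, *GPI* at 0.20, *PFKP* at -0.046, *PFKFB3* at 0.23, *TPI1* at 0.50, *GAPDH* at 0.34, *LDHB* at 0.087 (short row 0.25) and *DDIT4* at -0.50. The difference between the groups in the log2 ratio of *PFKP* to *PFKL* was 0.0088 at a pseudocount of 0.1 and 0.012 at 0.01, and that of *HK2* to *HK1* was 0.80 without N8 and N9. Over the 7 fits that each lacked a sample the ranges were -0.56 to 0.024 for *ARNT*, -0.31 to 0.059 for *VHL*, -0.55 to 0.52 for *EGLN1*, -0.71 to 0.66 for *EGLN3*, -0.83 to 0.68 for *HK2*, -0.95 to 0.18 for *PFKFB3*, -0.60 to 0.24 for *LDHB* (short row -0.88 to 0.35), -0.47 to 0.85 for *SLC16A3*, -0.092 to 0.82 for *NDRG1*, -1.06 to 0.57 for *ANGPTL4* and -0.29 to 1.20 for *DDIT4*, with -1.69 to 0.37 for the ratio of *HK2* to *HK1* and -0.48 to 0.44 for that of *PFKP* to *PFKL*.

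The study describes its non-tumor tissue as matched, but the labels do not say that a shared number marks a dog, and only 2 numbers are in both groups. Deviations from the group means correlated at 0.422 (N1 with T1) and 0.211 (N3 with T3). For N1 the best correlated tumor was T1, and for N3 it was T3. The random block took a correlation of 0.456 within a number. The fixed block used N1, T1, N3 and T3 alone. With no counts, differences of genes near 0 FPKM cannot be given a counting error.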

Other observations

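The remaining marker lists describe the same samples. Summed FPKM of the 11 erythroid markers ran from 13.4 (N1) to 5351 (N8) in non-tumor samples and from 8.06 to 90.0 in OSA tumor (7 of 11 called lower by limma, where 3.58% of all genes were). The 5 adipocyte markers summed to between 5.25 and 112 FPKM in non-tumor samples and between 3.31 and 5.83 in OSA tumor (3 of 4 tested called lower). The 8 macrophage markers summed to between 59.7 and 1010 FPKM against 179 to 572, and the 9 chondrocyte markers to between 11.02 and 302 FPKM against 124 to 839 (2 of 7 tested called higher, where 3.28% of all genes were). The 11 cell cycle markers summed to between 80.1 (N9) and 590 FPKM in non-tumor samples and between 253 and 609 in OSA tumor.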
